A study of Mus musculus with 7 samples.

Results

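Rmrp, Rpph1, Rn7sk, Rn7s1, Rn7s2, Terc, Malat1 and Neat1 are noncoding RNAs that act as RNA, either inside a ribonucleoprotein or in the nucleus. They were taken by name from the table of gene counts, where several of them are among the most abundant transcripts. They were thus chosen by their measured abundance, which is given below as description with no test. The stated reason for the choice did not use the genotype comparison, although earlier results of these data were known. Of the 8 names, 7 had at least 1 row, and 9 rows in all belonged to them among the 54347 rows of the table. The symbol column of the table named 5 of these rows. The other 4 (Rn7sk, Rn7s1, a second Rmrp row and a second Terc row) were found by gene identifier, since 22461 rows carried no symbol.

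The counts came from long-term haematopoietic stem cells (LT-HSCs), bone marrow cells able to renew the blood for life, sorted from female mice. The 4 WT libraries (Emcn+/+) were from littermates of the mice that gave the 3 KO libraries (Emcn-/-), and all carried the strain label C57BL/6N-EMCN em1(IMPC)Wtsi /WtsiH, so the knockout is a single mutant line. Emcn encodes endomucin, a mucin of the cell surface. Each library was made from 3000 to 5000 cells of 1 mouse, and ages were not given in the sources used here. Emcn counts were 130, 327, 223 and 216 in wt_284, wt_290, wt_310 and wt_312, and 1, 0 and 0 in ko_306, ko_314 and ko_320. Library totals ran from 6444134 to 11101774 counts, and the 3 deepest libraries (wt_284, wt_290 and ko_306) were also those of the 3 lowest mouse numbers. Summed levels of 13 stem cell marker genes were 1566 CPM in wt_284, where CPM are counts scaled to the size of the library. They were 2219 to 2522 CPM in wt_290, wt_310 and wt_312, and 2155 to 2469 CPM in KO. The library of wt_284 stood apart. The 20 myeloid marker genes, all detected, summed to 15910 CPM there, to 283 to 1393 CPM in wt_290, wt_310 and wt_312, and to 231 to 761 CPM in KO. The 14 erythroid marker genes with a row summed to 5605 CPM there, and those 3 WT libraries (335 to 1230 CPM) and the KO libraries (226 to 434 CPM) were again lower.

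Most of these RNAs are made by RNA polymerase III. Rmrp is the RNA of RNase MRP, which cuts the ribosomal RNA precursor, and Rpph1 is the RNA of RNase P, which trims the leader of transfer RNA precursors. The protein subunits of the 2 enzymes largely coincide. Rn7sk holds the elongation factor P-TEFb in an inactive complex with HEXIM proteins. Rn7s1 and Rn7s2 encode the RNA of the signal recognition particle, which brings ribosomes to the endoplasmic reticulum. Terc is the template of telomerase and is made by RNA polymerase II, as are the long nuclear RNAs Malat1, found in nuclear speckles, and Neat1, the scaffold of paraspeckles.

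The sequences shown here bear on what the counts can tell apart, or carry the element for which the RNA is known. They are transcripts of GENCODE M21 on GRCm38, written as DNA from 5′ to 3′. Both Rmrp rows come from 1 locus on the minus strand, and the record of 281 bases (ENSMUSG00000115420.1, chr4:43492783-43493063) holds the whole record of 271 bases (ENSMUSG00000088088.1, chr4:43492788-43493058). Capitals mark the 5 bases at each end that only the longer record has.

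Rmrp: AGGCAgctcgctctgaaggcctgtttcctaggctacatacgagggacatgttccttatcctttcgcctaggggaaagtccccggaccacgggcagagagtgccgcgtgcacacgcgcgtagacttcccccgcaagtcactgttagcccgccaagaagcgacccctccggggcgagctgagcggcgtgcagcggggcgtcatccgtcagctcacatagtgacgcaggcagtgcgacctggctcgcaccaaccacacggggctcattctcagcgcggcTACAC

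All 31-base words of the shorter Rmrp record, and 96.0% of those of the longer one, also occur in another gene, and each of these words is in the other Rmrp record. How the reads of this RNA fell to the 2 rows thus rests on the 10 outer bases and on the estimation by the authors' software. The protein-coding gene Ccdc107 overlaps on the opposite strand and shares 94 of these words. It had 685 counts in all libraries together.

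Rn7s2 (ENSMUSG00000099250.1) has no row among those analysed here. Its 300-base transcript and that of Rn7s1 (ENSMUSG00000099021.1) differ at 0 bases, so the Rn7s1 row cannot be split between the 2 genes.

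The first 110 of the 331 bases of Rn7sk (minus strand, chr9:78175303-78175633) are shown because HEXIM proteins bind GATC elements (GAUC in the RNA) near this end. Capitals mark the letters GATC, which start at bases 13, 42 and 64 and occur 3 times in the whole record. The same letters read on both strands. Of 138029 annotated transcripts of at least 110 bases, 0.427% hold GATC at least 3 times in their first 110 bases.

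Rn7sk: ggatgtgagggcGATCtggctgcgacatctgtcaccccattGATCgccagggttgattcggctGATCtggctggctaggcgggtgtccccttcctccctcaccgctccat

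For Terc the first 100 of the 423 bases of the annotated record (ENSMUSG00000064796.1, minus strand, chr3:96414437-96414859) are shown. Capitals mark the longest run complementary to the telomere repeat TTAGGG, 9 bases from base 28 to base 36, which is the template region of telomerase. Among 139316 annotated transcripts of at least 100 bases, 0.0359% hold this run on the transcribed strand in their first 100 bases.

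Terc: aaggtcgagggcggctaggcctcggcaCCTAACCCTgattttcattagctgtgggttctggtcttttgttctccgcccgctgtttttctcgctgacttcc

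The remaining members lie at chr14:50807449-50807767 (Rpph1, 319 bases, minus strand), chr19:5795690-5802672 (Malat1, 6983 bases, minus strand) and chr19:5824708-5845478 (Neat1, with a longest transcript of 20771 bases and another of 3004 bases, minus strand). Rpph1 lies inside Ccnb1ip1, a protein-coding gene of the same strand, which had 0 counts in every library although 203 of the 289 words of Rpph1 also occur in it.

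By mean share of all counts over the 7 libraries, Malat1 ranked 4 with 1.52%, Rn7s1 ranked 5 with 1.03%, Rn7sk ranked 6 with 0.607% and Rpph1 ranked 8 with 0.5%. Only the mitochondrial ribosomal RNAs mt-Rnr2 and mt-Rnr1 and the ribosomal RNA locus CT010467.1 ranked above Malat1. Neat1 ranked 380, the Rmrp rows ranked 684 and 1569, and the named Terc row had at most 0.000271% of the counts of a library. Per kilobase of the longest transcript the order changed, because the short RNAs pass Malat1. On that scale the mean level was 34660 CPM per kb for Rn7s1, 18410 for Rn7sk and 15750 for Rpph1, against 2181 for Malat1, 796 and 424 for the shorter and longer Rmrp records, and 15.1 for Neat1. A length taken from a longest transcript makes the Neat1 value the lowest that its annotated lengths allow.

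**Figure D1:**
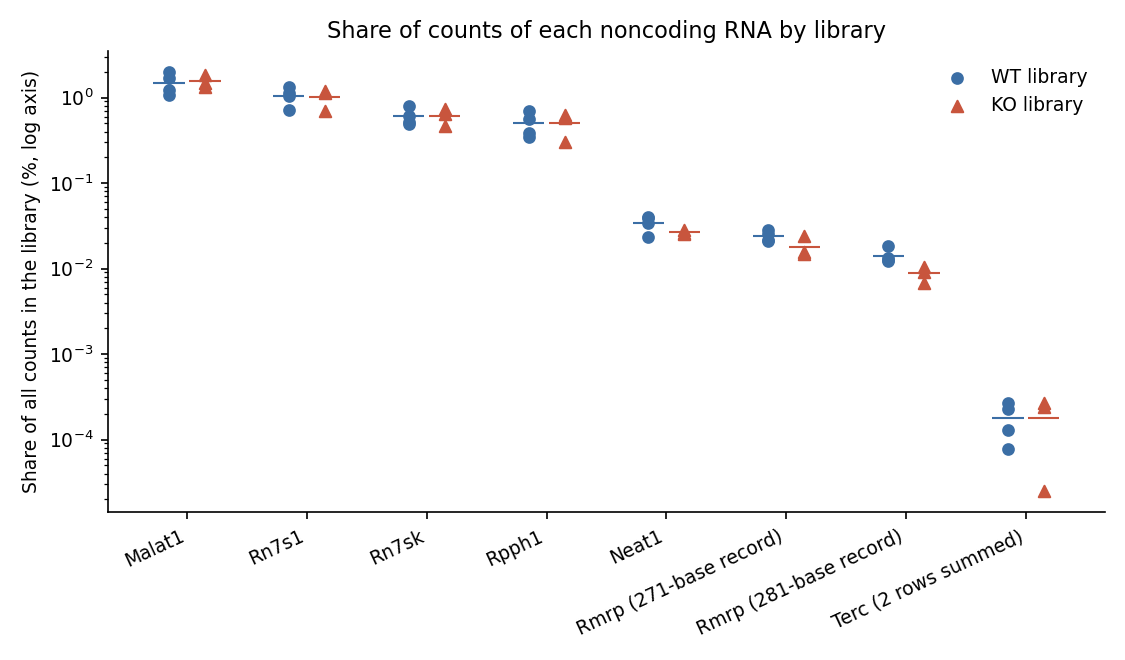
Share of all counts in each library (percent, log axis) for 7 member rows and for the Terc rows summed, with WT libraries as circles, KO libraries as triangles and group means as horizontal lines. Malat1, Rn7s1, Rn7sk and Rpph1 lie between 0.304% and 2.01%, with WT and KO interleaved, and the 281-base Rmrp record is the 1 row whose WT and KO points do not overlap.

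Over all 7 libraries, the mean share of the library that the 8 RNAs took up together was nearly the same in both genotypes. The summed share was 3.26%, 2.68%, 4.05% and 4.90% in wt_284, wt_290, wt_310 and wt_312, and 2.86%, 4.41% and 3.89% in ko_306, ko_314 and ko_320. The lowest and the highest libraries were both WT. The WT mean was 3.72% ± 0.966 (SD, n = 4) and the KO mean 3.72% ± 0.790 (SD, n = 3), a difference of -0.00264 percentage points that was far within the spread (p = 1 in a two-sided exact permutation test, which has 35 ways to divide 7 libraries into 4 and 3). The smallest p that this design can give is 0.0286. The difference depended on which libraries were compared, and in mice numbered above 300 (2 WT and 3 KO) it was -0.755 percentage points (exact permutation p = 0.4). Wherever p is given for a share below, it is from this test, and adjusted values are Benjamini-Hochberg over 11 shares.

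Rmrp, the RNA of RNase MRP, had the lowest KO values relative to WT among the abundant members. The 281-base record stood at 202, 119, 130 and 124 CPM in wt_284, wt_290, wt_310 and wt_312, and at 98.7, 91.0 and 69.9 CPM in ko_306, ko_314 and ko_320. Every KO library was below every WT library. The means were 143.5 ± 39.2 CPM (SD, n = 4) and 86.5 ± 14.9 CPM (SD, n = 3), and the log2 fold change of KO against WT was -0.73 with a 95% interval from -1.19 to -0.27. This did not pass the test over all genes (edgeR quasi-likelihood test, Benjamini-Hochberg adjusted p = 0.992). Without a filter on low counts, where edgeR tested 29739 rows and called 81, the same row passed at -0.72 (adjusted p = 0.0493). DESeq2 gave -0.74 (adjusted p = 0.373). In bulk samples such as these, less RNA per cell and fewer cells of a type that holds it cannot be told apart.

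Of the shares, that of the 281-base record was the 1 at the smallest p the design allows (exact permutation p = 0.0286, adjusted p = 0.314). WT libraries held 0.0140% ± 0.00282 (SD, n = 4) of their counts in it and KO libraries 0.00877% ± 0.00179 (SD, n = 3). Among all 15372 tested genes, 2.43% had every KO library below every WT library, and 4.86% had groups that did not overlap in either direction. Of the 8 member rows tested, 1 had groups that did not overlap. The highest library, wt_284, is also the one with the high myeloid and erythroid marker levels, whose part in the Rmrp difference was not tested. Without wt_284 the log2 fold change was -0.52. Groups that do not overlap stay apart when a library is left out, so their order without wt_284 tests nothing further.

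The 271-base record was higher than the 281-base record in every library. It stood at 311, 245, 211 and 210 CPM in the WT libraries, in the order given above, and at 228, 153 and 154 CPM in the KO libraries. Here ko_306 lay within the WT range and the other KO libraries below it, and KO was below WT in 10 of 12 pairs of libraries. The log2 fold change was -0.46 (95% interval -0.87 to -0.04, edgeR adjusted p = 0.992), and -0.31 without wt_284. With both rows added, which removes the division of reads between the records, the log2 fold change was -0.55 (edgeR adjusted p = 0.992). The summed share then was 0.0380% ± 0.00573 (SD, n = 4) for WT against 0.0268% ± 0.00649 (SD, n = 3) for KO (exact permutation p = 0.0571). The summed shares of the groups overlapped, with 0.0341% in ko_306 against 0.0337% in wt_312. The counts of the longer record were 0.433 to 0.648 of those of the shorter one, with overlapping groups.

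**Figure D2:**
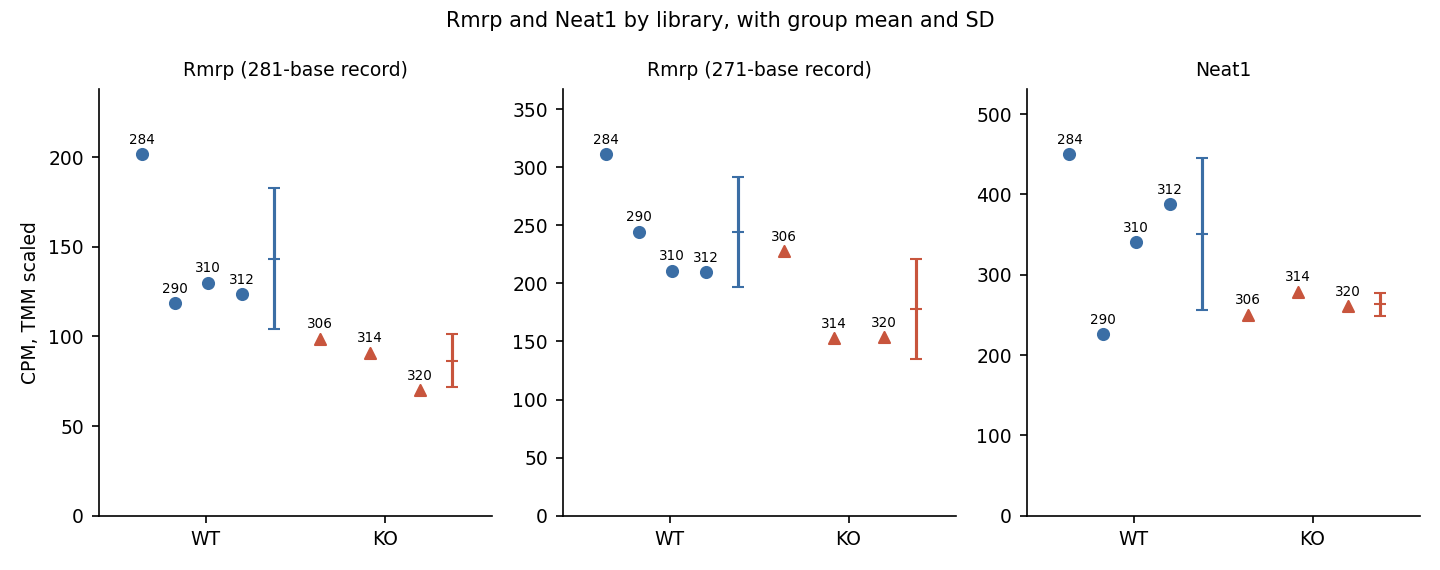
Level in CPM of both Rmrp records and of Neat1 in each library, labelled by mouse number, with group means and SD as bars beside the points. For the 281-base record all 3 KO triangles (69.9 to 98.7 CPM) lie below all 4 WT circles (119 to 202 CPM), whereas ko_306 lies among the WT circles for the 271-base record and wt_290 lies below all KO triangles for Neat1.

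Rpph1, the RNA of RNase P, showed no such pattern although it shares protein partners with Rmrp. Its level was 4273, 3350, 5564 and 6926 CPM in wt_284, wt_290, wt_310 and wt_312, and 2905, 6210 and 5942 CPM in ko_306, ko_314 and ko_320. The groups overlapped fully, with a WT mean of 5028 ± 1558 CPM (SD, n = 4) and a KO mean of 5019 ± 1836 CPM (SD, n = 3). The log2 fold change was -0.00 with a 95% interval from -0.80 to 0.79, so that a change within these bounds is not excluded. The ratio of Rmrp to Rpph1 counts differed by -0.52 on the log2 scale between KO and WT, which did not hold against the spread (exact permutation p = 0.371, adjusted p = 0.543 over 3 ratios). It was -1.03 without ko_306, and -0.32, -0.28 and -0.25 without wt_284, ko_314 or ko_320.

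Of the 11 genes for protein subunits of the 2 enzymes, 10 were tested, 6 with positive and 4 with negative log2 fold changes and 0 called, and the median was 0.20 against -0.02 over all 15372 tested genes. By the smallest p these were Pop4 at 0.52, Rpp30 at 0.39 and Rpp40 at -0.61, all subunits found in both enzymes (edgeR adjusted p = 0.992 for each).

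Rn7sk, which restrains transcription elongation through P-TEFb, had overlapping levels in the 2 genotypes. It stood at 5826, 4743, 5953 and 7893 CPM in the WT libraries and at 4447, 7234 and 6555 CPM in the KO libraries. The lowest was ko_306 and the highest wt_312, and the log2 fold change was -0.01 (95% interval -0.44 to 0.42). Among 7 tested proteins of the 7SK and P-TEFb complexes 3 had positive and 4 negative values, with 0 called and a median of -0.02. Hexim1, the inhibitor that Rn7sk recruits, had -0.62. It stood at 99.3 CPM in wt_284, the library with high myeloid and erythroid markers, whereas wt_290, wt_310 and wt_312 (27.4 to 40.6 CPM) resembled the KO libraries (23.8 to 46.2 CPM), so that only wt_284 lay above the KO range. The cyclin T genes Ccnt1 and Ccnt2, partners of the kinase Cdk9, had -0.23 and 0.13. For 72.8% of the Rn7sk words another of 25 annotated genes holds the same letters, and those genes had 499 counts in all libraries together, against at least 38953 counts of Rn7sk in each library.

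Rn7s1, which here stands for the signal recognition particle RNA of either gene, stood at 11470, 6883, 11170 and 13110 CPM in wt_284, wt_290, wt_310 and wt_312, and at 6698, 11780 and 11680 CPM in ko_306, ko_314 and ko_320. In each genotype 1 library, wt_290 or ko_306, lay well below the others. The log2 fold change was -0.08 (95% interval -0.67 to 0.50). Of 10 tested proteins of the particle and its receptor, 3 had positive and 7 negative values, with 0 called and a median of -0.10. Srp54a and Srp54b, copies of the subunit that binds signal peptides, had 0.26 and 0.23, and Srpr, the receptor subunit, had -0.15. The third copy, Srp54c, named here after its values were seen, had -0.22.

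Terc was near the limit of detection. The named row (ENSMUSG00000118406.1, which the annotation used here does not hold) had 21, 5, 5 and 10 counts in the WT libraries and 27, 18 and 2 in the KO libraries. An exact Poisson 95% interval, which covers counting error only, runs from 17.8 to 39.3 for the 27 counts of ko_306 and from 0.242 to 7.22 for the 2 counts of ko_320. The highest and the lowest library were thus both KO and differed beyond counting error. The second row, whose sequence is shown above, had 23 counts in wt_290 and 0 in the other 6 libraries, where 0 allows 3 counts or a share of at most 2.7e-05% to 4.66e-05%. In wt_290 most Terc counts were thus in the second row, and in the other libraries all were in the named row. Whether the rows draw on the same reads was not tested, since no sequence of the named row was at hand. A comparison of single rows is therefore uncertain. The log2 fold change of the named row was 0.47 (95% interval -1.77 to 2.71), with 1 library left out it ran from 0.08 (without ko_314) to 1.06 (without wt_284), and that of both rows added was -0.05.

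Of 12 tested telomerase proteins 7 had positive and 5 negative log2 fold changes, 0 were called and the median was 0.07. Dkc1 and Gar1, proteins of the H/ACA complex that stabilises Terc, had 0.29 and 0.43, and Ruvbl2, an ATPase of telomerase assembly, had -0.21.

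Malat1 was the most abundant member and did not separate the genotypes. Its level was 13670, 10560, 16500 and 19840 CPM in wt_284, wt_290, wt_310 and wt_312, and 12710, 18000 and 15320 CPM in ko_306, ko_314 and ko_320. All KO values lay inside the WT range, and the log2 fold change was 0.02 (95% interval -0.42 to 0.46). Neat1, its neighbour on chromosome 19, stood at 450, 226, 340 and 388 CPM in the WT libraries and at 250, 279 and 261 CPM in the KO libraries. The KO libraries lay close together, above wt_290 and below the other 3 WT libraries. The means were 351 ± 94.6 CPM (SD, n = 4) and 263 ± 14.5 CPM (SD, n = 3), with a log2 fold change of -0.42 (95% interval -0.85 to 0.02, edgeR adjusted p = 0.992) and of -0.27 without wt_284. The share of Neat1 differed at an exact permutation p of 0.171 (adjusted p = 0.629).

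Malat1 counts were 30.4, 46.7, 48.5 and 51.2 times those of Neat1 in the WT libraries and 50.9, 64.6 and 58.8 times in the KO libraries. The KO ratios were higher apart from ko_306, which fell just below wt_312 (difference 0.42 on the log2 scale, exact permutation p = 0.0857, adjusted p = 0.257 over 3 ratios). Without wt_284 the difference was 0.25 (exact permutation p = 0.2). Of 19 tested paraspeckle and speckle proteins, 10 had positive and 9 negative values, with 0 called and a median of 0.00. Sfpq, a core paraspeckle protein, had -0.16, Nudt21, a cleavage factor subunit that acts in the choice of poly(A) sites, had 0.32, and the splicing factor Sart1 had -0.21.

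**Figure D3:**
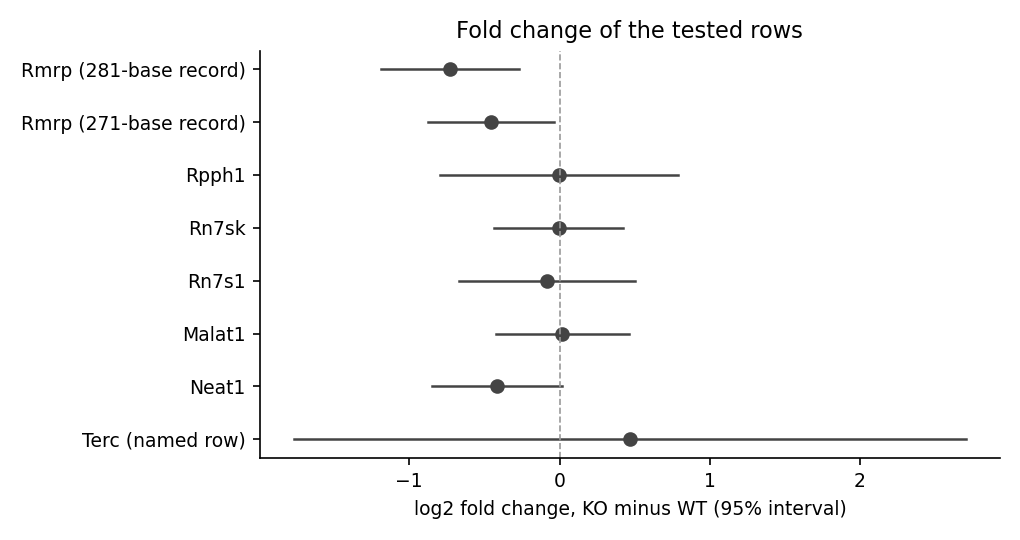
Log2 fold change of KO against WT (horizontal axis) of the 8 tested member rows, with 95% intervals from edgeR. The intervals of both Rmrp records lie below 0, those of the other 6 rows include 0, and that of Terc is the widest, from -1.77 to 2.71.

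In all, 8 member rows were tested and 0 were called, where edgeR called 0.00651% of all tested genes, that is Emcn alone. Of all tested genes, 3.27% had an unadjusted p under the threshold of 0.05 in edgeR, and among the members both Rmrp rows did. These rows are nested records of the same RNA, with reads divided between them by estimation, so they are not separate members to set against that percentage. On the scale of the spread between libraries, the members of at least 100 CPM were among the more variable genes above that level. The genes compared were not matched to the members in abundance. Among 1955 genes with a mean of at least 100 CPM, 94.5% had a smaller SD of log2 CPM over the 7 libraries than Rpph1, 91.0% than Rn7s1, 82.4% than Malat1 and 80.9% than Rn7sk.

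The variation of Rpph1, Rn7sk, Rn7s1 and Malat1 was shared. Libraries with more of one held more of the others, irrespective of genotype. Over the 7 libraries Pearson's r of log2 CPM was 0.97 for Rpph1 and Rn7sk, with Spearman's rho of 1.0 (exact permutation test over all orders of the libraries, adjusted p = 0.00556 and 0.0111 over 28 pairs). For Rn7sk and Rn7s1 r was 0.93 and rho 0.96 (exact permutation, adjusted p = 0.00556 and 0.0259). For Rpph1 and Rn7s1 these were 0.93 and 0.96 (exact permutation, adjusted p = 0.0241 and 0.0259).

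Malat1, although long and made by another polymerase, followed the same order. Its r was 0.90 with Rpph1 and 0.91 with Rn7sk, with a rho of 0.93 for each (exact permutation, adjusted p = 0.0259 for r and 0.0378 for rho). With Rn7s1 r was 0.85 and rho 0.86 (exact permutation, adjusted p = 0.0259 and 0.111). After leaving out the 2 libraries farthest from the median of the first RNA, r was 0.87, 0.87, 0.66, 0.91, 0.93 and 0.72 for the pairs in the order given. The relation of Rpph1 and Rn7s1 therefore rests in part on ko_306 and wt_290.

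Rmrp did not take part in this. Against Rpph1, r was -0.18 for the 281-base record and -0.57 for the 271-base record (exact permutation, adjusted p = 0.879 and 0.499). The Rmrp rows correlated with each other at 0.88 (exact permutation, adjusted p = 0.0476), with a rho of 0.68 (adjusted p = 0.307) and an r of 0.59 without ko_320 and wt_284. Neat1 and Malat1 correlated at 0.49 (exact permutation, adjusted p = 0.539).

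**Figure D4:**
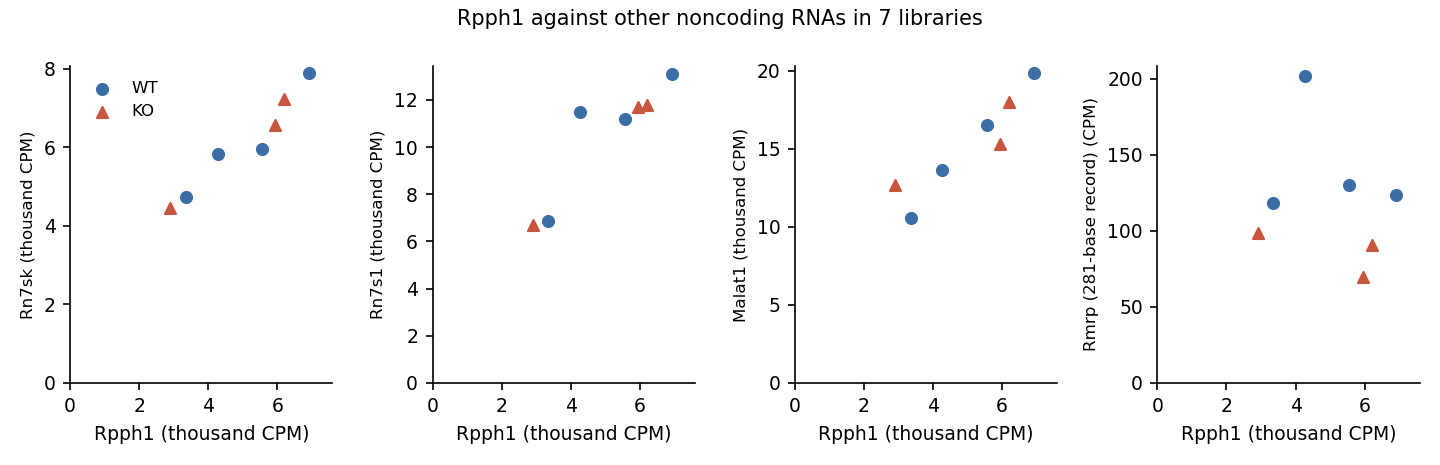
Level of Rn7sk, Rn7s1, Malat1 and the 281-base Rmrp record (vertical axes) against that of Rpph1 (horizontal axis) in the 7 libraries, in CPM with the scale given on each axis, with WT as circles and KO as triangles. The points of Rn7sk, Rn7s1 and Malat1 rise with Rpph1 for both genotypes (r = 0.97, 0.93 and 0.90), and those of Rmrp do not (r = -0.18).

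The shares of the RNAs that varied together tended to be lower in deeper libraries, although the correlations below did not pass the threshold. Rpph1, Rn7sk, Rn7s1 and Malat1 had their 3 lowest shares in wt_284, wt_290 and ko_306, the 3 deepest libraries. As counts, Rpph1 was 35254, 35473 and 33731 in these 3 libraries and 36405 to 53935 in the other 4, whose totals were lower. The counts of the other RNAs overlapped between these sets of libraries. Rn7sk had 48060, 50232 and 51644 against 38953 to 61463. Rn7s1 had 94612, 72895 and 77780 against 73057 to 102100, and Malat1 had 112781, 111831 and 147659 against 107978 to 154515. Across the 7 libraries the log2 share correlated with the log2 total at r = -0.88 for Rpph1, -0.85 for Rn7s1, -0.79 for Rn7sk and -0.79 for Malat1, each with a rho of -0.75. The adjusted exact permutation p was 0.0841 to 0.0881 for r and 0.133 for rho, over 8 rows. The library total enters both values, so a negative r can arise wherever counts do not rise in step with the total. Without ko_306 and wt_290 the r values were -0.62, -0.39, -0.44 and -0.68, each nearer to 0, and those of Rn7s1 and Rn7sk by most. For the Rmrp records r was 0.13 and 0.59. Depth, mouse number and whatever else separated these 3 libraries from the other 4 cannot be told apart, and each set has too few libraries for a correlation within it.

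With the library total as a term of the edgeR fit, the log2 fold change of the 281-base Rmrp record was -0.74 and that of the 271-base record -0.49. Among the mice numbered 310 and above, 2 of each genotype, a choice made after seeing the data, they were -0.66 and -0.46. In the mice numbered above 300, which add ko_306, they were -0.54 and -0.23. None of these passed the threshold.

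The genes whose profile over the 7 libraries was nearest to each RNA were found among 9889 genes of at least 10 CPM, by the root mean square difference of centred log2 CPM. For the 281-base Rmrp record these were Gm23262 (0.0958), Ostm1 (0.105) and Rnf123 (0.118), and for the 271-base record Arhgef3 (0.0753), Gstm1 (0.0804) and Ncoa3 (0.0887). For Rn7sk they were Arhgap15 (0.0665), Tma7 (0.086) and Acadsb (0.0871), for Rpph1 A930004J17Rik (0.108), D8Ertd738e (0.111) and Gm19040 (0.117), and for Rn7s1 Gm44694 (0.104), Cox17 (0.107) and again Tma7 (0.109). Malat1 was nearest to Traf3ip3 (0.0735), Nktr (0.0804) and Wdr31 (0.0827), and Neat1 to Lats2 (0.0987), Mafg (0.125) and Arid5a (0.136). For Terc the nearest was Mtmr10 at 0.418, farther than for any other member, followed by Pde3b (0.423) and Pde6d (0.497).

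Other structured noncoding RNAs (Y RNAs, a vault RNA and small nuclear and nucleolar RNAs) had mostly lower values in KO. They were listed for comparison with earlier results of these data known. Of 13 tested rows, 1 had a positive and 12 a negative log2 fold change, with 0 called and a median of -1.26, whereas 8055 of all 15372 tested genes had negative values with a median of -0.02. By the smallest p these were Rnu11, an RNA of the minor spliceosome, at -1.37, the Y RNA Rny3 at -1.06 and a row of the U3 RNA gene Rnu3b1 at -0.89 (edgeR adjusted p = 0.992 for each). Rny3 was at 79.5, 60.0, 36.4 and 30.8 CPM in the WT libraries and at 37.1, 21.5 and 15.5 CPM in the KO libraries, with overlap through ko_306. The 13 rows are not 13 separate RNAs, because Rnu3a and Rnu3b1 each had more than 1 row. Some rows were also low, such as Rnu1b1 with a KO mean of 0.402 CPM against 1.59 CPM in WT. Rows of this kind can pass the filter on low counts through the WT libraries. The number of negative rows is therefore given as description only. How reads were divided between rows of similar sequence was not tested for this list.

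The list summed to 1151, 583.5, 464.1 and 580.3 CPM in wt_284, wt_290, wt_310 and wt_312, and to 545.1, 268.7 and 77.4 CPM in ko_306, ko_314 and ko_320. In every library except ko_320, much of the sum came from 1 row, the U1 RNA Rnu1a1, named after its values were seen. It stood at 617.6, 324.2, 281.2 and 439.7 CPM in the WT libraries and at 345.0, 175.1 and 0 CPM in the KO libraries. None of the sum in ko_320 thus came from Rnu1a1. The log2 fold change of Rnu1a1 was itself the median of the list, -1.26, with a wide interval from -5.24 to 2.72. The highest sum was again in wt_284, the library with high myeloid and erythroid markers, and ko_306 again lay within the WT range. Without wt_284 the median was -0.81 over 12 tested rows, 11 of them negative, and without ko_306 it was -2.03 over 13 rows, all negative. In mice numbered above 300 it was -0.51 over 12 rows, 10 of them negative. The part of the other cells in this was not tested.

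Of 20 tested nuclear long noncoding RNAs other than Malat1 and Neat1, 7 had positive and 13 negative values, with 0 called and a median of -0.11. Dleu2, the host of a microRNA cluster, had -0.48, the snoRNA host Gas5 0.32, and the imprinted H19 -1.54 at a mean of 6.57 CPM in WT. The list of RNA polymerase III subunits, its general factors and regulators, and SNAPc with its partners, which start transcription of Rn7sk, Rmrp and Rpph1, had 21 positive and 10 negative values among 31 tested genes, with 0 called and a median of 0.10. The SNAPc subunit Snapc4 stood at 0.42, the polymerase subunit Polr3e at 0.37, and Pou2f1, an octamer-binding factor, at 0.21.

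**Figure D5:**
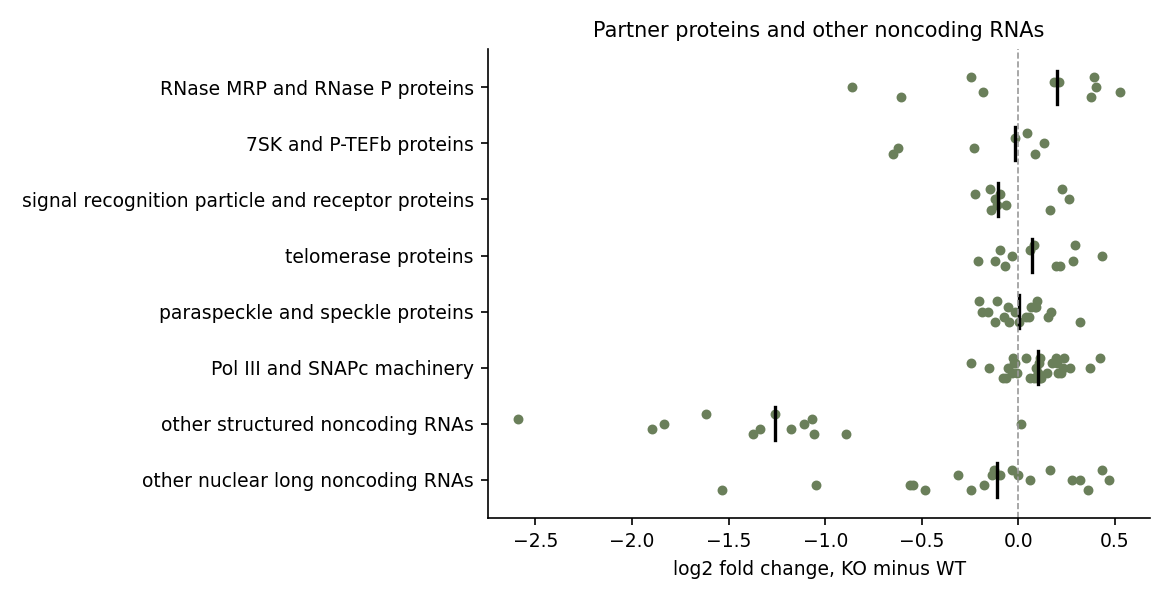
Log2 fold change of KO against WT (horizontal axis) of the tested genes in the lists of partner proteins and of other noncoding RNAs, 1 point per gene or row, with the median of each list as a vertical bar. Points of the protein lists lie on both sides of 0 with medians from -0.10 to 0.20, and 12 of 13 points of the other structured noncoding RNAs lie below 0.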

How the data were processed

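RNA of sorted LT-HSCs was made into libraries with a SMARTer stranded kit for total RNA (Pico Input, V2), per the labels' protocols, a kit that takes up RNA without a poly(A) tail, although the molecule label reads polyA RNA. The authors deposited estimated counts per gene as whole numbers, made with cutadapt and Salmon per the submitters' processing notes. Their versions, the annotation and how transcripts were summed to genes were not given in the sources used here. Counts of identical or nested sequences are thus divided by estimation, and short RNAs can be lost in RNA and library purification, so levels are of the library. The names of all 7 value columns are sample descriptions. Identifiers were present in GENCODE M21 (GRCm38) with the same version for 98.1% of rows. The named Terc row is not in it.

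The 4 WT and 3 KO libraries, grouped by genotype label, went into a robust quasi-likelihood fit in edgeR 4.0.16 (R 4.3.3) after filterByExpr and TMM, with KO minus WT as the contrast, p adjusted by Benjamini-Hochberg over 15372 genes and a threshold of 0.05. CPM are scaled with the TMM factors, and log2 CPM used a prior count of 2. Fold changes carry 95% intervals from the quasi-likelihood fit. Shares and ratios were compared by exact permutation of the 7 libraries, and correlations over all their orders. Planned ratios of Rn7s1 to Rn7s2 could not be computed. In counts simulated for this comparison over 14790 genes, the fit recovered 0.0% of genes changed 1.5-fold, 22.4% of those changed 2-fold and 62.0% of those changed 4-fold. DESeq2 1.42.0, other scalings and filters, and libraries left out in turn were alternatives.

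The 8 RNAs and all lists were chosen with earlier results of these data known. All member rows are named. From each list of partner proteins or noncoding RNAs the 3 tested genes with the smallest p are named, and for each member the 3 nearest profiles. The replicates are separate mice. Sequences are shown for Rmrp, Rn7sk and Terc, and those of the other RNAs are not reported here.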

Additional observations from a re-analysis of the deposited data

Results flagged for a closer look

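In the 4 WT libraries, wt_284 stood apart for the 281-base Rmrp record, with a share of 0.01819% of counts against 0.01217% to 0.01319% in the others. The gap to the nearest library was 0.83 of the whole range. The same library had the highest myeloid and erythroid marker levels.

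For the Terc row with an annotated sequence, wt_290 stood apart with a share of 0.0002228% of counts, from 23 counts, against 0 counts in the other 3 WT libraries. These 2 were found among 14 groups tested in this way, of which chance marks about 1 in 20.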

How the results depend on the processing

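Of 325 values recomputed under alternatives, 255 kept their direction and their side of the threshold. The settings were other scalings, filters and tools, each library left out, and the mice above 300 or, added after seeing the data, those numbered 310 and above, summed rows and the library total as a term. The cause of a change was not tested. No paired analysis was possible because the groups share no mouse number and the labels do not say which of the littermates share a litter.

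Both Rmrp records and Neat1 kept negative log2 fold changes under every setting run, from -0.85 to -0.52 for the 281-base record, which passed without a filter on low counts (-0.7248) and in no other setting. With a library left out, the exact permutation test of its share cannot reach the threshold (smallest p 0.1 or 0.0667). The sign of the share difference could not turn there, because the groups did not overlap.

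Over all genes, DESeq2 called 13, edgeR with no filter 81, with mice above 300 7, with mice numbered 310 and above 10, and with a library left out 1 to 3 (3 without wt_284 or ko_306, 2 without wt_290 or ko_314).

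Signs turned mainly where values were near 0. Upper-quartile scaling, total counts and a filter of 1 CPM in 3 libraries gave log2 fold changes of 0.0223, 0.0115 and 0.0095 for Rpph1 and of 0.0243, 0.0164 and 0.0077 for Rn7sk. With a library left out these ran from -0.1741 to 0.2541 for Rpph1, -0.1369 to 0.1594 for Rn7sk, -0.2581 to 0.1207 for Rn7s1 and -0.1331 to 0.1929 for Malat1. In mice above 300 these were -0.3112, -0.1827, -0.2677 and -0.2386, Malat1 was at -0.132 in those numbered 310 and above, and Terc with rows summed at -0.0515.

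The difference in summed share was 0.0187 percentage points without ribosomal and mitochondrial genes and 0.01264 as log2, and ran from -0.3503 to 0.4277 with a library left out (0.4277 without ko_306, 0.3906 without wt_312). It was -0.7547 in mice above 300 and -0.3244 in those numbered 310 and above. The other differences in share ran, with a library left out, from -0.2509 to 0.2814 for the short RNAs, -0.104 to 0.2089 for Malat1 with Neat1, -0.05754 to 0.1037 for Rpph1, -0.05209 to 0.08008 for Rn7sk, -0.1559 to 0.1124 for Rn7s1 and -0.09244 to 0.2152 for Malat1. In mice above 300, and then in those numbered 310 and above, they were -0.4489 and -0.1265 for the short RNAs, -0.2213 and -0.06749 for Rn7s1, -0.3058 and -0.1979 for Malat1 with Neat1, -0.1299 and -0.03041 for Rpph1, -0.09045 and -0.01765 for Rn7sk and -0.2954 and -0.1877 for Malat1. The log2 ratio of short RNAs to Malat1 with Neat1 ran from -0.208 to 0.0409 with a library left out.

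Depth limits Terc, at 2 to 28 counts per library over both rows. With 4 and 3 libraries the fit recovered 22.4% of simulated 2-fold changes and 0.0% of 1.5-fold ones.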
